A study of Mus musculus with 6 samples.

Results

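Integrin subunits are the paired surface proteins through which a cell holds on to its matrix. The transcripts of 10 of them were followed here through an exposure of mammary epithelial cells to transforming growth factor β1 (TGFβ1). The 10 genes are Itga2, Itga3, Itga5, Itga6, Itgav, Itgb1, Itgb3, Itgb4, Itgb5 and Itgb6. They were taken by symbol from a table of 21240 genes. The rule uses no measured value, but the list was drawn up with earlier results of these data known. NMuMG, an established epithelial line from normal mouse mammary gland, was used throughout. All cultures first spent 6 h in medium without serum or insulin. Cells then received 5 ng/ml TGFβ1 for 2 h (TGFb2h) or 12 h (TGFb12h), or vehicle for 2 h (veh). The labels give the vehicle once as Tris-HCl with BSA and once as HCl with BSA. Each of the 3 groups had 2 biological replicates, hence 6 libraries of stranded total RNA. The vehicle cultures were kept for 2 h only. The 12 h comparison therefore also sets a longer against a shorter time without serum or insulin. The contributions of time and of TGFβ1 cannot be told apart. A single cell line was used, so all values describe that line.

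Each integrin is a heterodimer of an α and a β subunit that spans the plasma membrane, binds matrix outside the cell and connects to the cytoskeleton inside. The α subunit largely sets the ligand. The αv integrins read the RGD motif of fibronectin and vitronectin, and αvβ6 in particular binds the latent form of TGFβ and can release the active cytokine. α5β1 is the classical fibronectin receptor, α2β1 binds collagens, and α3β1 and α6β1 bind laminins. α6β4 anchors epithelial cells to laminin in the basement membrane through hemidesmosomes. In mammary epithelium these receptors keep cells attached to the basement membrane and take part in the loss of epithelial order that TGFβ1 induces.

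The libraries held between 14705886 and 23786993 counts in genes. Levels are given as CPM, the counts of a gene relative to the size of its library, with library sizes scaled by the trimmed mean of M values (TMM). The median difference between the 2 replicates of a gene was 0.152 on the log2 scale in vehicle, 0.22 at 2 h and 0.134 at 12 h. Of the epithelial markers checked, Cdh1, Krt8 and Krt18 were abundant, whereas Epcam, Cldn7 and Esrp1 stayed at or below 0.697 CPM in every library. The summed epithelial markers lay at 3300 to 3940 CPM in vehicle, 4690 to 4780 at 2 h and 9890 to 9910 at 12 h, mostly Krt8 and Krt18, while Cdh1 had means of 392, 530 and 372 CPM. Markers of leukocytes summed to at most 7.39 CPM and those of platelets to at most 2.48 CPM, while Cd3e was at 0 in all libraries. Markers of endothelium summed to at most 0.404 CPM in vehicle and at 2 h and to 1.74 to 1.95 at 12 h, mostly Cdh5. Those of fibroblasts summed to 3.51 to 4 CPM in vehicle, 8.4 to 8.78 at 2 h and 13.4 to 13.9 at 12 h, with Thy1 at 0 throughout. The vehicle sum was mostly Pdgfra (mean 2.47 CPM), and the treated sums were mostly Col1a1 (means of 5.79 CPM at 2 h and 10.9 at 12 h). The part of other cells in the integrin values was not tested beyond these levels. In bulk RNA, a change in the number of expressing cells and a change in RNA per cell cannot be told apart.

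After TGFβ1 most of the 10 subunits were higher than in vehicle, and none was called lower. A gene was called when its adjusted p in edgeR's quasi-likelihood test was under 0.05, with adjustment over all 11080 genes that passed a filter of 2 CPM in 2 libraries. All 10 subunits passed this filter. At 2 h, 6 of 10 were called higher (Itga2, Itga6, Itgb3, Itgb4, Itgb5 and Itgb6), against 9.91% of all genes tested. None was called lower, against 5.25% of all genes. At 12 h, 8 of 10 were called higher (Itga2, Itga5, Itgav, Itgb1, Itgb3, Itgb4, Itgb5 and Itgb6), against 21.8% of all genes, and none lower, against 21.5%. No subunit was lower than vehicle in edgeR at an unadjusted p under 0.05 at either time, nor called lower by limma-voom or DESeq2. With the added demand of a log2 change above 1, 3 subunits remained at 2 h and 6 at 12 h, where all genes gave 4.23% and 8.03%. The median log2 change of the 10 was 0.81 at 2 h and 1.79 at 12 h, beside -0.01 and 0.02 over all genes tested. Both treated libraries lay above both vehicle libraries for 9 of 10 subunits at 2 h, against 28.3% of all genes. The same held for 9 of 10 at 12 h, against 39.5%, and Itga3 was the exception at both times. The comparisons at 2 h and at 12 h share their vehicle libraries. The 10 were listed with earlier results of these data known, so these counts describe the list and not integrin subunits at large. Outside the list, 3 more subunits passed the filter, and all 3 were called lower at 12 h.

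Between 2 h and 12 h the subunits parted. Itga2, Itga5, Itgb1 and Itgb3 were higher at 12 h than at 2 h, 4 of 10 against 15.2% of all genes. For 3 of these, Itga5, Itgb1 and Itgb3, the log2 difference was above 1, against 4.50% of all genes. Itga6 was lower at 12 h than at 2 h, 1 of 10 against 18.9% of all genes. The number called lower was the count most open to the method: it was 1 with edgeR, and 3 with DESeq2. It was 2 without the second TGFb2h library, where Itgb6 joined.

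**Figure D1:**
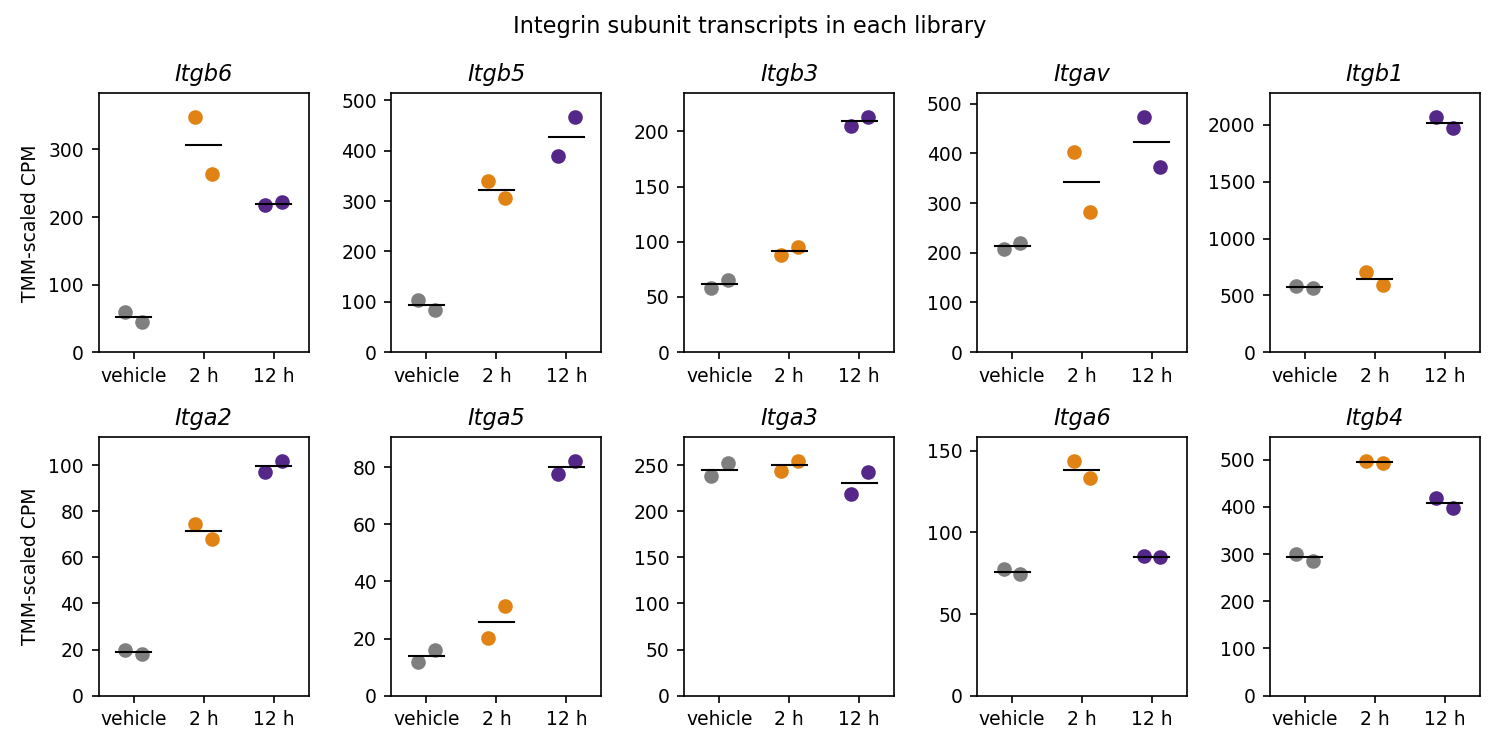
TMM-scaled CPM of each of the 10 integrin subunits (vertical axis from 0, its own scale in each panel) in vehicle and after 2 h and 12 h of TGFβ1. Each point is a library and each line a group mean; the points of Itgb6 are highest at 2 h, those of Itgb1 and Itga5 stand apart at 12 h, and those of Itga3 overlap between all groups except 2 h and 12 h.

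The promoters of the 5 subunits with the largest log2 changes at 12 h are shown here, so that the bases before each start can be read beside the values. They come from RefSeq on the assembly GRCm38.p6 and run 5′ to 3′ on the strand of the gene, 250 bases before the start and 50 from it. Itgb6 (chr2:60722554-60722853, minus strand, the upstream of 2 annotated starts), Itga2 (chr13:114932051-114932350, minus), Itgb5 (chr16:33829415-33829714, plus), Itgb1 (chr8:128685404-128685703, plus) and Itga5 (chr15:103366742-103367041, minus) follow in that order. Capitals mark CAGAC or its reverse complement GTCTG, the short element that Smad3 and Smad4, the transcription factors of the TGFβ pathway, can bind.
Itgb6: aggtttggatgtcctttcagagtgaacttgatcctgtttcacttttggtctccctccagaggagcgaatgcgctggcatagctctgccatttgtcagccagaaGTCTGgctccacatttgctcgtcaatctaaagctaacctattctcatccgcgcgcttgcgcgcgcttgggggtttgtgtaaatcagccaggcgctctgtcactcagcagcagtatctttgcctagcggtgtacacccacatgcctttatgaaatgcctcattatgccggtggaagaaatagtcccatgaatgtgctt
Itga2: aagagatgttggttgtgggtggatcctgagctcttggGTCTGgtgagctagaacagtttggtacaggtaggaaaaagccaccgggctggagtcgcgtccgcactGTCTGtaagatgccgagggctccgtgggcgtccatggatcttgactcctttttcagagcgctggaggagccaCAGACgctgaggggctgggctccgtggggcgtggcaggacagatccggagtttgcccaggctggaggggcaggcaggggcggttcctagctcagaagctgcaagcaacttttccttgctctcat
Itgb5: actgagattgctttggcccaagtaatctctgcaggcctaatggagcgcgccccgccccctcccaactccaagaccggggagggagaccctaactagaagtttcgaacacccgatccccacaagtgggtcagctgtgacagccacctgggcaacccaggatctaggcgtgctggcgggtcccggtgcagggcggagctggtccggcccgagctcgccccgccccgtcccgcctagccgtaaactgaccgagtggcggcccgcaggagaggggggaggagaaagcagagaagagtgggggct
Itgb1: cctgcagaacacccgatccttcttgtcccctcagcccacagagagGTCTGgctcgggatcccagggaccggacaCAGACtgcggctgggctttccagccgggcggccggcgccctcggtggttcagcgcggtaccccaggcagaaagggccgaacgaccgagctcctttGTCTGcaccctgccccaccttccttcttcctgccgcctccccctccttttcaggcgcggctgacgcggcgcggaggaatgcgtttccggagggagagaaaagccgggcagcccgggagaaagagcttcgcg
Itga5: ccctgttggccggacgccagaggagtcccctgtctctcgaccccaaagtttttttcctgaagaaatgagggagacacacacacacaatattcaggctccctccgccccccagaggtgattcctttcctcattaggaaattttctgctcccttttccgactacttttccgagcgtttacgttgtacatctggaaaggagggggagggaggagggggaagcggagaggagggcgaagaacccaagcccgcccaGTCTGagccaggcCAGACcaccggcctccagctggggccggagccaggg

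RefSeq windows were at hand for 7 of the 10 subunits, 9 windows in all, and Itga6, Itgb3 and Itgb4 had none in the table used. Motifs were searched on both strands. CAGAC occurred 3 times in the Itga2 window, 3 times in that of Itgb1, 2 times in that of Itga5 and 1 time in that of the upstream Itgb6 start. It also occurred 1 time at the upstream start of Itga3, which was not called at either time. It did not occur in the windows of Itgb5 and Itgav or at the downstream starts of Itgb6 and Itga3. The same 5 letters were found in 49.6% of the 32851 promoter windows of that length. GTCTAGAC, the longer palindromic Smad element, was in none of the 9 windows and in 0.213% of all. TGANTCA, the element of AP-1 factors, was present in 1 window, the downstream start of Itga3, and in 7.81% of all. GGGCGG, the GC box, was in every window shown except Itgb6, and in 35.7% of all. The Itgb6 window had 50.3% G and C, against 65.7% for Itgb5, 67.3% for Itgb1, 59.3% for Itga2 and 58.7% for Itga5. These matches describe letters and do not show binding.

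Of the β subunits that pair with αv, Itgb6 and Itgb5 had log2 changes above 1 at 2 h, and Itgb3 and Itgb1 did not. Itgb6 (Entrez 16420), the β subunit of αvβ6, lies on the minus strand at chr2:60436349-60560700 of NCBIM37 (mm9), the build used for all gene positions. It was at 60 and 45.3 CPM in the vehicle libraries, 348 and 263 at 2 h, and 218 and 222 at 12 h. All 4 treated libraries were above both vehicle libraries, and both 2 h libraries were above both 12 h libraries. The mean rose from 52.7 ± 10.4 CPM (SD, n = 2) to 306 ± 60 at 2 h and was 220 ± 2.47 at 12 h. The log2 change against vehicle was 2.54 (SE 0.191, adjusted p = 0.00063) at 2 h and 2.06 (SE 0.188, adjusted p = 0.000306) at 12 h. The difference of -0.47 from 2 h to 12 h did not pass (SE 0.179, adjusted p = 0.0836). It passed with DESeq2 (adjusted p = 0.0484) and, in edgeR, without the second 2 h library (log2 change -0.66, adjusted p = 0.0195). Without the first it was -0.26 (adjusted p = 0.265).

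Itgb5 (Entrez 16419; plus strand, chr16:33829751-33949239) encodes the subunit of αvβ5, a vitronectin receptor. Its libraries were at 104 and 82.9 CPM in vehicle, 339 and 307 at 2 h, and 389 and 467 at 12 h. The 3 groups did not overlap, and the order was vehicle, 2 h, 12 h. The log2 change was 1.79 (SE 0.157, adjusted p = 0.00107) at 2 h and 2.19 (SE 0.159, adjusted p = 0.000144) at 12 h. From 2 h to 12 h the log2 difference of 0.41 was not called (SE 0.151, adjusted p = 0.0809), although DESeq2 gave an adjusted p of 0.0465. It was 0.26 without the second 12 h library (adjusted p = 0.377).

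Itgb3 (Entrez 16416; plus strand, chr11:104469370-104531790), the partner of αv in the vitronectin receptor of osteoclasts and endothelium, followed a slower course. It was at 58.4 and 65.8 CPM in vehicle, 88.3 and 95.7 at 2 h, and 205 and 213 at 12 h. Again no group overlapped another. The 12 h change of 1.75 on the log2 scale (SE 0.11, adjusted p = 8.9e-05) was larger than that at 2 h, and the difference between the times was 1.18 (SE 0.108, adjusted p = 0.000659). The early change of 0.57 (SE 0.108, adjusted p = 0.0172) was small and depended on the libraries in the fit. Its adjusted p was 0.131 without the first vehicle library, 0.0599 without the second, 0.0561 and 0.0562 without either 12 h library, and 0.0564 with only the 2 groups compared.

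Itgav (Entrez 16410; plus strand, chr2:83564554-83647073) encodes the α subunit that these β chains share. Vehicle libraries held 207 and 219 CPM, 2 h libraries 402 and 282, and 12 h libraries 473 and 372. Treated libraries were above vehicle at both times, but the replicates of each treated group differed by more than the 2 h and 12 h means did, and those groups overlapped. The 12 h change was 0.99 on the log2 scale (SE 0.195, adjusted p = 0.00696). Without the first 12 h library it was 0.80 and was not called (adjusted p = 0.0642). At 2 h the change of 0.68 did not pass (SE 0.195, adjusted p = 0.0623), although it did with DESeq2 (adjusted p = 0.00944), with no filter on low counts (adjusted p = 0.0488) and without the second 2 h library (0.92, adjusted p = 0.01). Without the first 2 h library it was 0.39 (adjusted p = 0.133), and in edgeR it missed the threshold without any of the other 4 libraries too. The 2 h against 12 h difference of 0.31 (adjusted p = 0.262) became 0.59 (adjusted p = 0.0322) without the first 2 h library, 0.07 (adjusted p = 0.768) without the second, and 0.12 (adjusted p = 0.778) without the first 12 h library.

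Of β1 and its collagen and fibronectin partners, Itgb1 and Itga5 changed mainly at the later time and Itga2 early. Itgb1 (Entrez 16412; plus strand, chr8:131209554-131257100), the most widely shared β subunit, had the highest level per kb of exon of the 10 in every group. It held 579 and 563 CPM in vehicle, 704 and 588 at 2 h, and 2070 and 1970 at 12 h. The 2 h libraries were barely above vehicle, while the 12 h libraries stood apart from the other 4. The log2 change was 0.18 at 2 h (SE 0.12, adjusted p = 0.372), which did not pass, and 1.82 at 12 h (SE 0.124, adjusted p = 0.000117). From 2 h to 12 h it was 1.64 (SE 0.123, adjusted p = 0.000394).

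Itga2 (Entrez 16398; minus strand, chr13:115626124-115722249), is the collagen-binding partner of β1. It was at 19.9 and 17.9 CPM in vehicle, 74.6 and 68 at 2 h, and 97.2 and 102 at 12 h, with no overlap between groups. The mean went from 18.9 ± 1.41 CPM (SD, n = 2) to 71.3 ± 4.66 and 99.6 ± 3.41. This was a log2 change of 1.91 at 2 h (SE 0.114, adjusted p = 0.000296) and 2.40 at 12 h (SE 0.115, adjusted p = 4.57e-05). The further rise of 0.48 from 2 h to 12 h (SE 0.107, adjusted p = 0.0145) was not called without the first 12 h library (adjusted p = 0.0793) or without the second (adjusted p = 0.108).

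Itga5 (Entrez 16402; minus strand, chr15:103174720-103197194), the α chain of the fibronectin receptor, had the lowest level per kb of the 10 in vehicle. It was at 11.7 and 16 CPM there, at 20.1 and 31.3 after 2 h, and at 77.7 and 82.3 after 12 h. The groups kept apart, but the spread between replicates at 2 h was wide. The 12 h log2 change of 2.53 (SE 0.247, adjusted p = 0.000392) was the largest point estimate of the 10 at that time, and lay within 1 SE of that of Itga2. The difference from 2 h to 12 h was 1.64 (SE 0.235, adjusted p = 0.00305). At 2 h, 0.89 missed the threshold (SE 0.242, adjusted p = 0.0542). It passed with DESeq2 (adjusted p = 0.0072), with no filter on low counts (adjusted p = 0.0333) and without the first 2 h library (1.16, adjusted p = 0.00692). Without the second it was 0.54 (adjusted p = 0.131), and it missed the threshold without any of the other 4 libraries too.

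The laminin receptors behaved differently from one another. Itga3 (Entrez 16400; minus strand, chr11:94905788-94938115), the α chain of α3β1, was at 238 and 252 CPM in vehicle, 244 and 255 at 2 h, and 219 and 243 at 12 h. Vehicle and treated libraries overlapped at both times. The log2 change was 0.03 at 2 h (SE 0.103, adjusted p = 0.87) and -0.09 at 12 h (SE 0.103, adjusted p = 0.54). Scaling by total counts moved the median of all genes by -0.11 at 2 h and -0.13 at 12 h, and it turned the 2 h value of Itga3 to -0.08. No value of the other 9 subunits turned direction under the alternatives run.

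Itga6 (Entrez 16403; plus strand, chr2:71583673-71696473) pairs with β1 or with β4. Its libraries held 77.4 and 74.6 CPM in vehicle, 144 and 133 at 2 h, and 85.3 and 85.1 at 12 h. The 2 h libraries were above all others, and the 12 h libraries lay only just above vehicle. The mean was 76 ± 1.98 CPM (SD, n = 2) in vehicle, 138 ± 7.45 at 2 h and 85.2 ± 0.126 at 12 h. The log2 change of 0.86 at 2 h was called (SE 0.0961, adjusted p = 0.00243), that of 0.16 at 12 h was not (SE 0.0958, adjusted p = 0.211), and the fall of -0.70 between the times was called (SE 0.0955, adjusted p = 0.00256).

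Itgb4 (Entrez 192897; plus strand, chr11:115836023-115869726), which pairs only with α6 and links it to the keratin network, held 300 and 286 CPM in vehicle, 498 and 492 at 2 h, and 418 and 398 at 12 h. No groups overlapped, and the order was vehicle, 12 h, 2 h. It was higher than vehicle by 0.75 at 2 h (SE 0.0953, adjusted p = 0.0038) and by 0.48 at 12 h (SE 0.0951, adjusted p = 0.00733) on the log2 scale. The 12 h call was lost without the second vehicle library (0.44, adjusted p = 0.0609) and without the first 12 h library (0.43, adjusted p = 0.0654). The decline of -0.28 from 2 h to 12 h was not called (SE 0.0947, adjusted p = 0.0626), whereas DESeq2 called it (adjusted p = 0.0203).

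**Figure D2:**
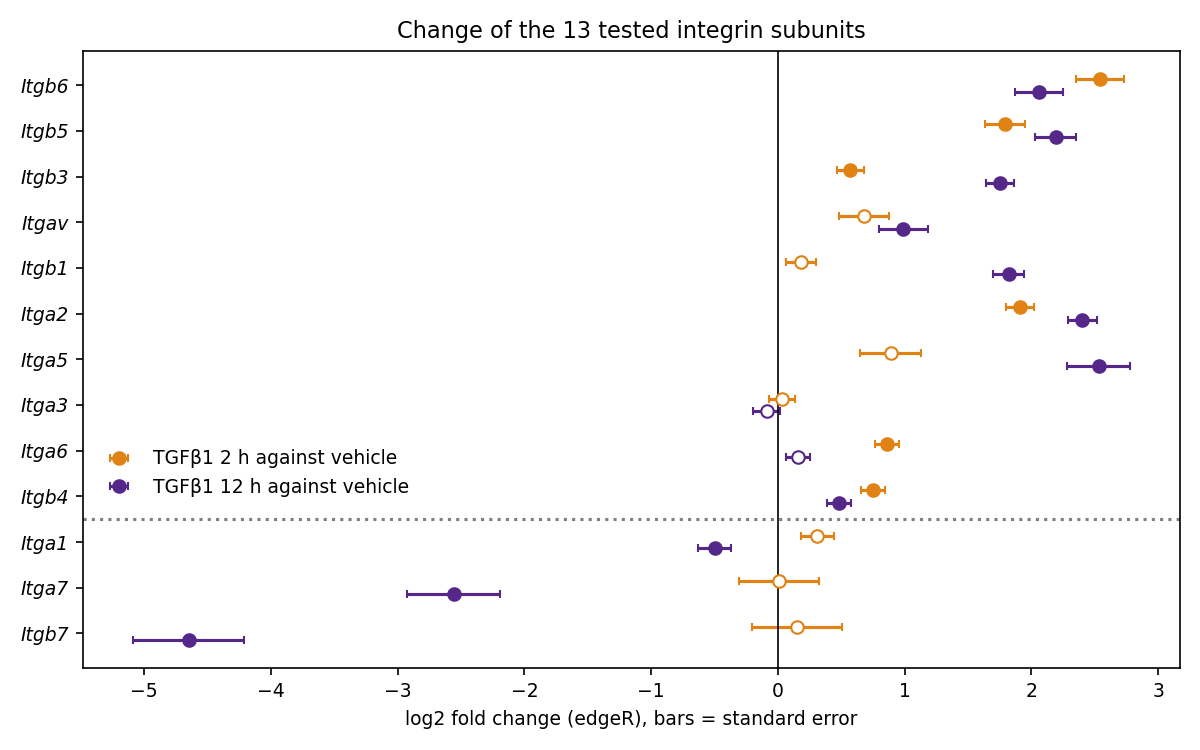
Log2 fold change against vehicle (horizontal axis) of the 10 subunits and, under the dotted line, of the 3 other integrin subunits that could be tested, at 2 h (orange) and 12 h (purple). Bars are standard errors from edgeR, filled points had an adjusted p under 0.05 and open points did not; 8 of the 10 points at 12 h are filled to the right of 0 and the 3 below the line are filled to its left.

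Levels between genes were compared per kilobase of exon (CPM per kb). In vehicle, Itgb1 led with 140, followed by Itga3 at 42.8 and Itgb4 at 41.8, whose libraries overlapped. Itgb5 came next at 27.8, then Itgav at 19.8, Itgb3 at 10.6, Itga6 at 8.43, Itgb6 at 7.41, Itga2 at 4.49 and Itga5 at 3.17. The libraries of Itga6 and Itgb6 overlapped, and all other neighbours in this order were apart. At 2 h the order was Itgb1 (158), Itgb5 (96.1), Itgb4 (70.5), Itga3 (43.7), Itgb6 (43), Itgav (31.8), Itga2 (16.9), Itgb3 (15.7), Itga6 (15.3) and Itga5 (5.87). Neighbours from Itga3 to Itgav and from Itga2 to Itga6 overlapped there. At 12 h the order was Itgb1 (494), Itgb5 (127), Itgb4 (58.1), Itga3 (40.4), Itgav (39.4), Itgb3 (35.8), Itgb6 (30.9), Itga2 (23.6), Itga5 (18.3) and Itga6 (9.44). Neighbours from Itga3 to Itgb3 overlapped. Itgb5 thus moved past Itga3 and Itgb4 at both times, and Itga6 was last at 12 h.

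The β subunits that can pair with αv are β1, β3, β5, β6 and β8, and their transcripts were summed per kb. The sum was 186 ± 7.72 CPM per kb (SD, n = 2) in vehicle, 313 ± 34.5 at 2 h and 688 ± 0.478 at 12 h. Itgb6 made up 3.97% ± 0.621 of the sum in vehicle, 13.7% ± 1.19 at 2 h and 4.5% ± 0.0473 at 12 h. Itgb5 made up 14.9% ± 1.78, 30.7% ± 1.22 and 18.5% ± 2.38. The 2 h libraries exceeded the others in both shares. Itgb1 gave 75.3% ± 1.69 in vehicle, 50.5% ± 0.866 at 2 h and 71.8% ± 2.56 at 12 h. Itgb3 stayed between 4.47% and 6.24% in all 6 libraries. Itgb8 had at most 8 counts in a library. Without Itgb1, Itgb6 was 16.1% ± 1.42 of the remaining sum in vehicle, 27.6% ± 2.89 at 2 h and 16% ± 1.29 at 12 h. Itgb3 was 23.4% ± 4.53, 10.2% ± 1.53 and 18.5% ± 1.18. Itgb5 was 60.5% ± 3.1, 62.1% ± 1.37 and 65.5% ± 2.48 of this remainder, with no peak at 2 h. Without division by exon length, the share of Itgb6 in the whole sum was larger, at 6.74%, 22.3% and 7.66%, and was again highest at 2 h. Shares of transcripts are not shares of assembled receptors.

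Of the α subunits that pair with β1, 5 are among the 10 described (Itga2, Itga3, Itga5, Itga6 and Itgav). Their summed level was 78.7 ± 2.66 CPM per kb (SD, n = 2) in vehicle, 114 ± 6.65 at 2 h and 131 ± 2.13 at 12 h. Itga3 supplied 54.4% ± 0.365 of it in vehicle, 38.6% ± 3.43 at 2 h and 30.8% ± 2.78 at 12 h. The share of Itga2 went from 5.71% ± 0.618 to 14.9% ± 0.102 and 18% ± 0.911. That of Itga5 was 4.01% ± 0.743, 5.22% ± 1.9 and 13.9% ± 0.791. The share of Itga3 was thus highest in vehicle, while its own level overlapped between vehicle and treated libraries. Itga1 and Itga7, other tested partners of β1, are not in this sum. With both added, a choice made after seeing the data, the sum was 85.4, 122 and 135 CPM per kb and the share of Itga3 was 50.1%, 36% and 29.9%. Itga1 itself was 6.66% of that wider sum in vehicle, 5.76% at 2 h and 2.98% at 12 h. The shares of Itga2 in it were 5.26%, 13.9% and 17.5%, and those of Itga5 were 3.7%, 4.88% and 13.5%.

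**Figure D3:**
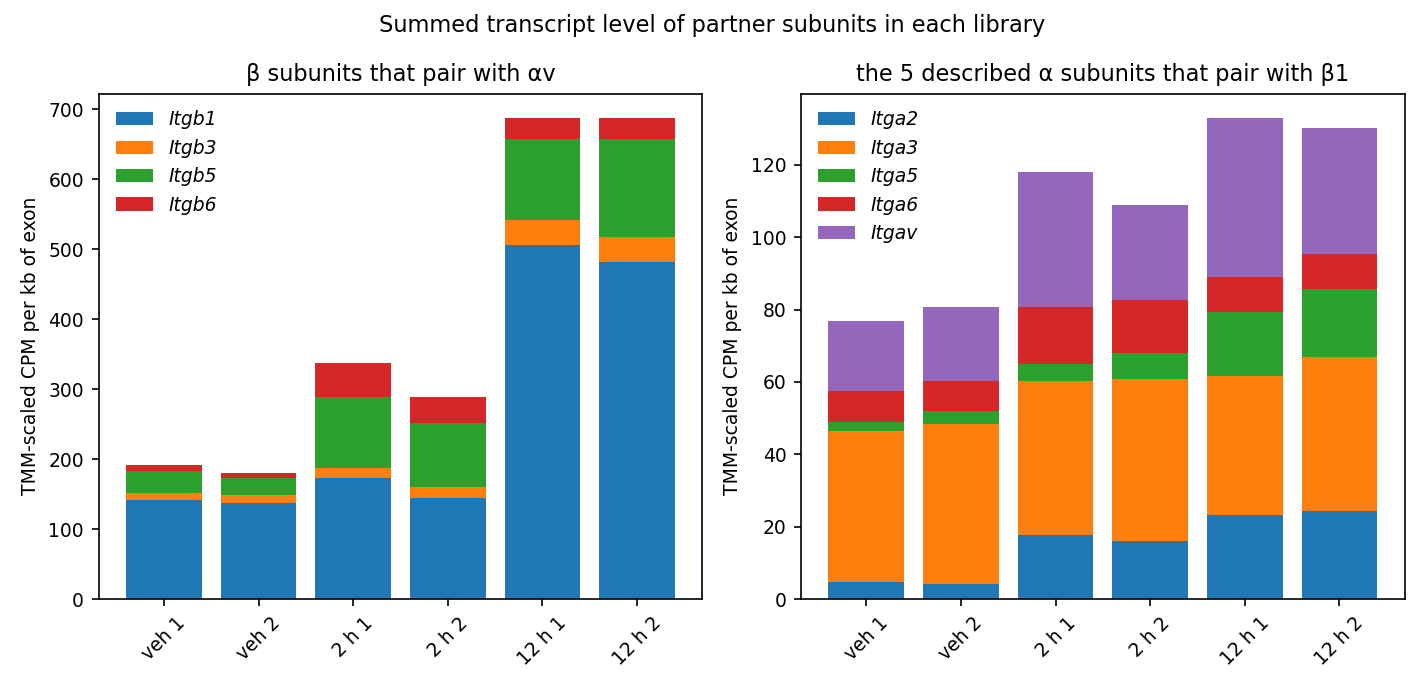
Transcript level in TMM-scaled CPM per kb of exon (vertical axis from 0), stacked by gene, for the β subunits that pair with αv (left) and the 5 described α subunits that pair with β1 (right), with a bar for each library. The left stack is 688 CPM per kb at 12 h against 186 in vehicle, and its Itgb5 and Itgb6 segments together are widest relative to the stack at 2 h.

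Most of the other integrin subunits were at low levels in these cells. Of 17 in the table, 3 passed the filter, and none of these was called at 2 h, while all 3 were called lower at 12 h. Among all genes tested, 5.25% were called lower at 2 h and 21.5% at 12 h. Itgb7, which pairs with α4 or αE on lymphocytes, held 76.1 and 121 CPM in vehicle, 77.3 and 142 at 2 h, and 2.96 and 4.98 at 12 h. Its log2 change at 12 h was -4.65 (SE 0.437, adjusted p = 0.000342), although its partners Itga4 and Itgae stayed at or below 0.574 CPM in all libraries. Itga7, a laminin receptor of muscle, held 5.71 and 3.25 CPM in vehicle, 5.01 and 4.04 at 2 h, and 0.741 and 0.771 at 12 h. Its 12 h change was -2.56 (SE 0.369, adjusted p = 0.00199), and it passed the filter only through the vehicle and 2 h libraries, where it was higher. Itga1, a collagen receptor like Itga2, held 49.5 and 41.5 CPM in vehicle, 60 and 52.4 at 2 h, and 32.5 and 32 at 12 h. It was lower by -0.50 at 12 h (SE 0.131, adjusted p = 0.0217), a call that was lost without the first vehicle library (-0.37, adjusted p = 0.13) or without either 12 h library (adjusted p = 0.104 and 0.116). Among the 14 not tested, Itga2b held 27 to 53 counts in a library and Itga10 22 to 34, and Itgax and Itgb2l had 0 counts in all 6.

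The ligands of these receptors were counted from lists of matrix genes. Beside the counts of these lists and of the partner lists that follow stand the shares of all genes tested. At 2 h, 9.91% of all genes were called higher and 5.25% lower. The 12 h shares were 21.8% and 21.5%. Of 7 tested ligands of the RGD class and other matrix proteins, 4 were called higher at 2 h and 5 at 12 h, and none lower, with median log2 changes of 0.98 and 3.84. Without the second vehicle library, 2 were called higher at 2 h. Fn1 encodes fibronectin, the ligand of α5β1 and of the αv integrins. It was at 99.7 and 79.6 CPM in vehicle, 170 and 183 at 2 h, and 1470 and 1100 at 12 h, a log2 change of 3.84 at 12 h (SE 0.195, adjusted p = 4.95e-05). At 2 h it was 0.98 (adjusted p = 0.0147), a call lost without the second vehicle library (0.82, adjusted p = 0.0844). Tnc, the matrix protein tenascin-C, was at 9.13 and 4.27 CPM in vehicle, 12.2 and 9.13 at 2 h, and 232 and 164 at 12 h, a log2 change of 4.88 at 12 h (SE 0.373, adjusted p = 0.00017). Thbs1, thrombospondin 1, changed by 5.32 at 12 h (SE 0.423, adjusted p = 0.000195) and Ctgf, a matricellular protein, by 6.13 (SE 0.358, adjusted p = 6.96e-05). The early change of Thbs1, 1.62 (adjusted p = 0.0303), was not called without either vehicle library (adjusted p = 0.0761 and 0.142) or without either 12 h library.

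Laminin and collagen genes split. Of 7 tested, 3 were higher at 2 h, and at 12 h 4 were higher and 3 lower, with medians of 0.45 and 0.98. The early count was 1 without the second vehicle library or without either 12 h library. Lamb1, a laminin β chain, was at 14.8 and 9.88 CPM in vehicle, 32.4 and 24.2 at 2 h, and 169 and 160 at 12 h, a 12 h change of 3.74 (SE 0.231, adjusted p = 8.45e-05). Col1a1, a chain of collagen I, changed by 3.51 (SE 0.35, adjusted p = 0.000436) from 0.648 and 1.27 CPM, and passed the filter only through treated libraries. Col4a2, of basement membrane collagen IV, changed by 1.03 (SE 0.161, adjusted p = 0.00273). Lama5, Lamb2 and Lamc1, the 3 chains of laminin-521, were the ones called lower at 12 h. Lama5 was at 696 and 655 CPM in vehicle, 921 and 919 at 2 h, and 474 and 487 at 12 h. It was called higher at 2 h (0.45, adjusted p = 0.0262) and lower at 12 h (-0.49, adjusted p = 0.00679), and its difference between the times was -0.94 (adjusted p = 0.000956). The 2 h call was lost without any 1 library of 5, with adjusted p up to 0.16, and the 12 h call without either 12 h library (adjusted p = 0.0567 and 0.05).

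In the hemidesmosome, where α6β4 is the receptor, 5 partners were tested. At 2 h 4 were higher and at 12 h all 5, with none lower and medians of 0.92 and 0.77. Without the second 12 h library, 3 were called at 12 h. Lamb3 is a chain of laminin-332, the ligand of α6β4. It was at 438 and 327 CPM in vehicle, 1180 and 1130 at 2 h, and 1540 and 1730 at 12 h, with log2 changes of 1.59 (SE 0.161, adjusted p = 0.00174) and 2.10 (SE 0.163, adjusted p = 0.000183). Lama3, another chain of that laminin, was below the filter at 4 to 31 counts. Cd151, the tetraspanin of laminin-binding integrins, rose at 12 h by 1.03 (SE 0.115, adjusted p = 0.000687). Its change of 0.48 at 2 h (adjusted p = 0.0372) was lost under several alternatives, including scaling by total counts (adjusted p = 0.0896) and the loss of any 1 library except the first at 2 h. Among the 5 tetraspanins, Cd151 alone was called higher at 2 h. At 12 h Cd151 and Cd81 were higher, and Cd82 was lower with -1.34 (adjusted p = 0.000253). The tetraspanin medians were 0.13 and 0.17.

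αv integrins also act on latent TGFβ, and 7 genes of the latent cytokine and its storage were tested. At 2 h 4 were higher and at 12 h 5, with none lower and medians of 0.67 and 1.52. The early count was 2 without any 1 of the 4 vehicle and 12 h libraries. Ltbp1, a latent TGFβ binding protein, was at 216 and 202 CPM in vehicle, 277 and 302 at 2 h, and 837 and 851 at 12 h, a 12 h change of 2.01 (SE 0.105, adjusted p = 5.11e-05). Its 2 h change of 0.47 (adjusted p = 0.027) was not called, at 0.40 to 0.51, when any 1 library except the first at 2 h was left out. In edgeR it also missed with total counts (adjusted p = 0.0648) and with only the 2 groups compared (adjusted p = 0.0791). Ltbp3 changed by 1.52 (SE 0.12, adjusted p = 0.000191) and Ltbp4 by 1.52 (adjusted p = 0.000969) at 12 h. Ltbp2, counted among the higher genes at both times, passed the filter only through its 12 h libraries, where it was high. Without either of them, or with only vehicle and 2 h compared, it fell below the filter and was not tested. It had 1 count in each vehicle library, 15 and 7 counts at 2 h, and 99 and 81 at 12 h. Against a floor of 3 counts per library this was at least 23-fold higher at 12 h. Its 2 h call was lost without either vehicle library (adjusted p = 0.176 and 0.147) or without the first 2 h library (adjusted p = 0.0843).

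Inside the cell, 10 activators and inactivators of integrins and 21 proteins of the focal adhesion plaque were tested. Of the 10 activators and inactivators, 1 was higher and 1 lower at 2 h, close to the 9.91% and 5.25% of all genes. At 12 h, 5 were higher and 1, Itgb1bp1, was lower, and the medians were 0.19 and 0.38. Neither lower call held when the vehicle libraries were left out in turn, and a second gene was called higher at 2 h without the first 2 h library. With DESeq2 3 were called higher at 2 h. Fermt1, the epithelial kindlin that binds β tails, was at 84.2 and 65.4 CPM in vehicle, 230 and 210 at 2 h, and 272 and 247 at 12 h, with log2 changes of 1.56 (SE 0.147, adjusted p = 0.00134) and 1.80 (SE 0.148, adjusted p = 0.000218). Its relative Fermt2, named after its value was seen as the only one lower at 2 h, changed by -0.60 there (SE 0.146, adjusted p = 0.0378). Flna, the actin crosslinker filamin A that competes with talin for β tails, changed by 1.5 at 12 h (SE 0.151, adjusted p = 0.000448) and Tln2, a talin, by 1.08 (SE 0.156, adjusted p = 0.00203). In the plaque, 11 genes were higher and none lower at 2 h. At 12 h, 15 were higher and 2, Tns2 and Kank1, were lower, and the medians were 0.44 and 0.79. The early count was 7 with only the 2 groups compared, 6 and 5 without the first or the second vehicle library, and 7 without either 12 h library. Neither lower call held without the second 12 h library. The largest 12 h changes in that list were Tns1 with 4.00 (SE 0.299, adjusted p = 0.000159) and Zyx with 2.69 (SE 0.208, adjusted p = 0.000177). Next were Parvb with 2.42 (SE 0.238, adjusted p = 0.000407) and Actn1 with 2.32 (SE 0.117, adjusted p = 4.9e-05). These genes encode tensin 1, zyxin, β-parvin and α-actinin 1, which join integrin tails to actin. Tns1 would not have passed the filter on its vehicle libraries alone.

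**Figure D4:**
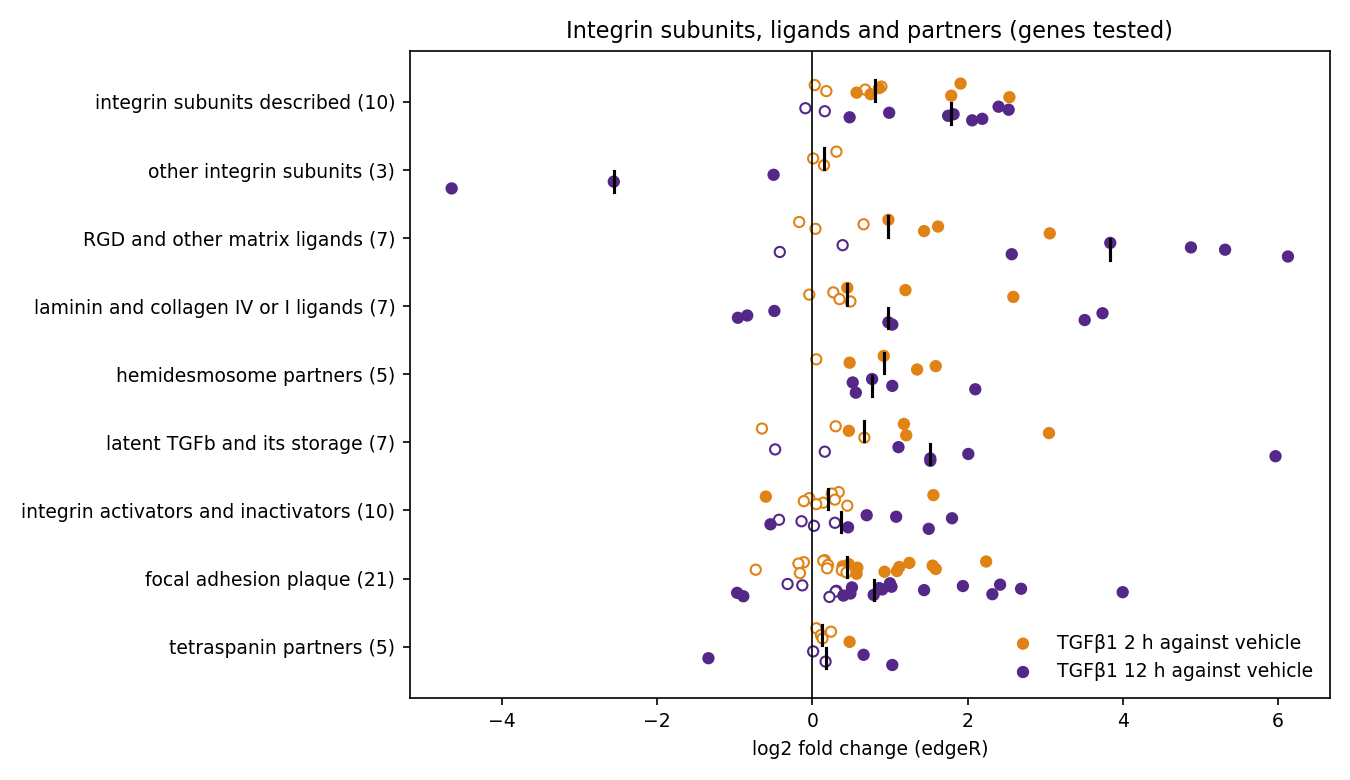
Log2 fold change against vehicle (horizontal axis) of each tested gene in the integrin list and in 8 lists of other subunits, ligands and partners, at 2 h (orange) and 12 h (purple), with the number tested in brackets. Points are genes, filled with an adjusted p under 0.05 and open otherwise, and black ticks are list medians; the medians of the RGD and other matrix ligands are 0.98 at 2 h and 3.84 at 12 h, beside 0.81 and 1.79 for the integrins.

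For each subunit the tested genes with the most similar course were found by the root mean square (RMS) difference, over the 6 libraries, of log2 CPM minus the vehicle mean. Itgb6 was least matched, with its nearest gene, Egr2, at 0.172 on the log2 scale. Itga2 was nearest to Tcf7 (0.101) and Plekho1 (0.12), and Itga5 to Timp1 (0.134) and Usp43 (0.145). Itgb1 was nearest to Tpm4 (0.0914) and Tspan7 (0.11), and Itgb3 to Actb (0.0911). Itgb5 was nearest to Arhgef18 (0.0992) and the laminin chain Lamb3 (0.126), and Itgav to Cdkn2a (0.0945) and Irx5 (0.106). Itga6 was nearest to Tnrc6a (0.0466) and Tgm2 (0.054), and Itga3 to Rundc1 (0.0177) and Dis3l (0.0287). The second nearest gene of Itgb4 was Ppp1r21 (0.0655). Between subunits, the closest were Itga2 and Itgb5 at 0.147, then Itga6 and Itgb4 at 0.193, which share a heterodimer, and Itgb1 and Itgb3 at 0.265. These distances describe 6 libraries and carry no test.

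The genes next to the 10 subunits were also looked up. Ordered by their starts, the nearest tested gene with a position on either side gave 18 neighbours. At 2 h 2 of the 18 were called higher and none lower, and at 12 h 7 were higher and 4 lower, beside 9.91% and 21.8% of all genes called higher and 5.25% and 21.5% called lower. At 2 h these were Pelo, next to Itga2, with a log2 change of 0.90 (adjusted p = 0.00575), and Rbms1, next to Itgb6, with 0.54 (adjusted p = 0.0404). The start of Pelo lies 158 kb from that of Itga2 and the start of Rbms1 241 kb from that of Itgb6. The body of Itga1 also lies on that side of Itga2, but its start is farther away than that of Pelo. Ly75, on the other side of Itgb6, changed by 0.06 at 2 h (adjusted p = 0.862). Heg1 and Umps, on the sides of Itgb5, changed by 0.14 and 0.13 at 2 h (adjusted p = 0.865 and 0.548). At 12 h both were called higher, Heg1 by 1.78 (adjusted p = 0.0139) and Umps by 0.68 (adjusted p = 0.0049). The 2 of 18 called higher at 2 h are close to the share of all genes.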

How the data were processed

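RNA-seq was analysed from 6 libraries of NMuMG cells in 3 groups of 2. The deposited values were raw counts per gene: per the labels and methods, the authors aligned reads with Subread to mm9, removed duplicates with SAMtools 0.1.19, and counted uniquely aligned stranded reads in exons with featureCounts. Removing duplicates from single-end reads of short length can cap the counts of abundant genes such as Itgb1. No pooled or unassigned columns were used.

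Counts were fitted with edgeR 4.0.16 (quasi-likelihood, TMM factors, all 3 groups in 1 model) in R 4.3.3, for the 11080 of 21240 genes that reached 2 CPM in 2 or more libraries. Adjusted p values are Benjamini-Hochberg values over all genes tested, separately for each comparison. Standard errors are the absolute log2 change divided by the square root of F. The common biological coefficient of variation was 0.148. Depth was 14705886 to 23786993 counts. The labels call the replicates biological and say no more of their source, so p values measure the spread between these samples. Exon lengths and gene positions came from GENCODE vM1 on NCBIM37, an annotation other than the one counted, so levels per kb are approximate. In simulated data for 12 h against vehicle over 10923 genes, all 197 of 197 genes given a log2 change of 1.5 were recovered, with 11 false calls. Alternatives were limma-voom 3.58.1, DESeq2 1.42.0, other scalings and filters, a replicate block, only the groups compared, a larger prior count, and each library left out. Likeness used log2 of CPM plus 0.25.

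The subunits and lists were chosen with earlier results of these data known. Named genes were all 10 subunits, every other tested integrin subunit, up to 4 genes of each list with the largest 12 h change among those with an adjusted p under 0.05 and an absolute log2 change above 1 at 2 h or 12 h, genes called in opposite directions at 2 h and 12 h, the 2 nearest genes in course, and flanking genes. Genes outside this rule, such as Fermt2 or Cd81, were named after their values were seen, to spell out small counts. A few genes that this rule selects are not reported here.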

Additional observations from a re-analysis of the deposited data

Results flagged for a closer look

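The level after 12 h of TGFβ1 differed from that after 2 h, by edgeR's test of 12 h against 2 h, for 5 of the 10 subunits. Of all genes tested, 15.2% were called higher and 18.9% lower in this comparison. No vehicle was kept for 12 h, so a change of the TGFβ1 effect and a longer time without serum or insulin cannot be told apart. The log2 change against vehicle at 12 h minus that at 2 h was 1.64 for Itga5, 1.64 for Itgb1, 1.18 for Itgb3 and 0.48 for Itga2, with higher values at 12 h, and -0.70 for Itga6, with lower values at 12 h. For Itga2 the call was lost when either 12 h library was left out. Groups of 2 libraries were too small to look for a library that stands apart.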

How the results depend on the processing

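Over 450 values of a subunit in a comparison under an alternative, 420 kept their direction and side of the threshold, 17 passed it newly, 10 fell short of it and 3 turned direction. limma-voom changed no call. The number of subunits lower at 12 h than at 2 h was 1, and 3 with DESeq2, 2 with total counts and 3 with the replicate block. It ranged from 1 to 2 when each library was left out. The 2 h change of Itga3 was -0.08 with total counts and ranged from -0.01 to 0.07 when each library was left out. The replicate numbers are not stated to mark a shared day or batch. Whether same-numbered libraries share one was not tested, with 2 pairs per comparison. Deviations of same-numbered libraries correlated with r = 0.708 for vehicle with 2 h, 0.263 for vehicle with 12 h and 0.392 for the treated groups with each other. With the replicate block the common coefficient of variation was 0.091. Under the block, Itga5 (adjusted p = 0.00259) and Itgav (adjusted p = 0.00657) were also called at 2 h, which made 8 subunits, and Itgb4 (0.03), Itgb5 (0.0302) and Itgb6 (0.0116) between 2 h and 12 h. The alternatives for the partner lists were chosen after seeing the data: 425 of 480 list counts stayed within 1.5 times. The causes were not tested. With 2 libraries in a group, small changes such as those of Itga3 were not detectable, and leaving a library out assumes that the lone library varies like the other groups.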
